A study of Mus musculus with 3 samples.

Results

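The genes described here encode the subunits of the mitochondrial oxidative phosphorylation system that are specified by the nuclear genome. They were chosen by name, as genes whose single platform symbol matched the naming pattern of complex I (Nduf), complex II (Sdh), complex III (Uqcr), complex IV (Cox4 to Cox8) or complex V (Atp5) subunits, which gave 81 of 18193 genes with a single-gene probe set. Of these, 33 belonged to complex I, 4 to complex II, 8 to complex III, 19 to complex IV and 17 to complex V. Ndufa4 and its relative Ndufa4l2 were set with complex IV, where the NDUFA4 protein is now placed. Each gene was read by its probe set with the highest mean over the 3 arrays.

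Complexes I to IV form the electron transport chain of the inner mitochondrial membrane. Complexes I and II take electrons from NADH and succinate, complex III passes them on to cytochrome c, complex IV hands them to oxygen, and complex V, the ATP synthase, uses the proton gradient that the chain builds. Each complex except complex II combines a few subunits encoded in the mitochondrial DNA with many encoded in the nucleus, and a hepatocyte is rich in all of them.

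Liver RNA came from 3 mice of mixed strain aged 3 months, each given 1 intraperitoneal injection of 400 microL of adeno-associated virus and sampled 1 week later. The control virus was MUP-EGFP-AAV8, named for the fluorescent protein EGFP (2 mice), and the Cre virus was MUP-iCre-AAV8, named for the iCre recombinase (1 mouse). The labels do not spell out MUP. The design text has Hnf4a-floxed mice in both groups. The labels of single samples instead give wild type for the controls and HNF4alpha knockout for the Cre mouse, so any genotype difference cannot be told apart from the virus. HNF4alpha is a nuclear receptor that drives much of hepatocyte gene expression.

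Values are log2 expression after robust multi-array averaging (RMA), and a difference is Cre minus the mean of both controls, with limma's moderated standard error (SE). A gene rose or fell where limma's adjusted p was under 0.05 over 12735 fitted genes. The Cre group is 1 mouse, assumed in the test to vary as the controls do. Array medians were 4.15 to 4.18. Hnf4a fell from 11.91 and 11.96 to 11.38 (-0.55, limma adjusted p = 0.0401) on its brightest probe set and differed by -1.18, -0.67 and -0.61 on the others; whether they lie in the floxed part was not analysed here. The hepatocyte markers Alb, Ttr, Apoa1 and Cps1 were at 13.92 or higher in every liver, while Tat, an enzyme of tyrosine breakdown, fell from 12.56 and 12.57 to 11.55 (-1.02, adjusted p = 0.0101). Of these 6 genes, Hnf4a included, 4 lay below both controls and 2 above both. On the array's quality probe sets, signal at the 3-prime end of Actb exceeded that at its 5-prime end by 1.71 and 2.06 in the controls and by 2.39 in the Cre liver, and for Gapdh by 0.45, 0.82 and 1.04, so both gaps were widest in the Cre liver; their part in the differences below was not tested.

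Promoter windows were looked up for the members, since most of them lay a little higher with Cre virus. RefSeq windows on the GRCm38.p6 build, from 250 bases before to 50 bases after the annotated start, matched 66 of the 81 members. The 4 printed here belong to members that rose: Atp5k and Ndufc1 are constitutive subunits of complexes V and I, Ndufa3 is another of complex I, and Cox6b2 is the subunit isoform with the largest difference. Capitals mark exact matches to the core motifs of NRF1 (GCGCATGC), YY1 (AAGATGGC), the ETS proteins that include GABP (ACTTCCGG), HNF4 (CAAAGTCCA) and ERR (TCAAGGTCA), searched on both strands. The Atp5k window (chr5:108434350-108434649, minus strand) holds GCGCATGC on both strands, overlapping, the first from 50 bases before the start. The Ndufc1 (chr3:51408906-51409205, minus strand) and Ndufa3 (chr7:3617123-3617422, plus strand) windows each hold AAGATGGC from base 23 of the transcript, and the Cox6b2 window (chr7:4753045-4753344, minus strand) holds none of the motifs. The windows of the remaining members that rose, Ndufb7, Cox7a1, Cox7a2 and Cox7c, are not printed and hold none of the motifs either.
Atp5k: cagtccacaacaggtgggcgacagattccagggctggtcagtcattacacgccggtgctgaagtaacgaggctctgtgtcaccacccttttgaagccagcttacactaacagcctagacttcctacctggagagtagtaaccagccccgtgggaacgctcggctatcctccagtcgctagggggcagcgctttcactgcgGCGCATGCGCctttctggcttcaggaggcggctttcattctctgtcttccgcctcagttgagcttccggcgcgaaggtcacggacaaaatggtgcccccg
Ndufc1: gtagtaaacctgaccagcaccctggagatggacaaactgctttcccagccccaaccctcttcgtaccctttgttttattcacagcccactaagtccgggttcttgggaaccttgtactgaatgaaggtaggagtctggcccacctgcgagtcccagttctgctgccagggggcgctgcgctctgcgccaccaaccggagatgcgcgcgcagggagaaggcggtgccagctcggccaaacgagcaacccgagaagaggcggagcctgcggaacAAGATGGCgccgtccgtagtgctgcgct
Ndufa3: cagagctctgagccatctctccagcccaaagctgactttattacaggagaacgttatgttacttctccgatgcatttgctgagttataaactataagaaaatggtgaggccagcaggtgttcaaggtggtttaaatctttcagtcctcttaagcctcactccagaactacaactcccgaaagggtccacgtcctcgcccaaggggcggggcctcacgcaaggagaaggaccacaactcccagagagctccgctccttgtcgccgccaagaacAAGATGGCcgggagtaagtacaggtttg
Cox6b2: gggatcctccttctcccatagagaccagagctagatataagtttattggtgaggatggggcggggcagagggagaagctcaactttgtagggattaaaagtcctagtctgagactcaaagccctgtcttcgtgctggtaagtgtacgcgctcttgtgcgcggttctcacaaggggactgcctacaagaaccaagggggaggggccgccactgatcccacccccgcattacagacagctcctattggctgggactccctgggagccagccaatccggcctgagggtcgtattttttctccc

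NRF1, GABP and YY1 are regulators long tied to genes of the respiratory chain. The NRF1 core was found in 9 of 66 member windows (13.6%), against 5.63% of 10205 fitted genes and 3.05% of 27025 genes with a window. The YY1 core was found in 9 member windows (13.6%), against 4.93% and 3.19%. The ETS core was found in 5 (7.58%, against 8.35% and 4.31%), the ERR motif in 2 (3.03%, against 0.37% and 0.47%) and the HNF4 motif in 0 of 66 (against 0.62% and 0.56%). Of the 63 fitted members with a window, the 9 with an NRF1 core had a median difference of 0.28 and the 54 without one 0.21. For YY1 the medians were 0.31 for 9 and 0.21 for 54. For the ETS core they were 0.21 for 5 and 0.23 for 58, and for ERR 0.03 for 2 and 0.24 for 61, so the order differed between motifs and was not tested. A match describes letters in the window and shows neither binding nor control.

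Most members were slightly higher in the Cre liver. Of the 81, 78 lay at or above the filter value of 3.77 (the 30th percentile of gene means) and were fitted; the others, Ndufb4, Cox7b2 and Cox8b, were too dim. The median difference of the fitted members was 0.21, beside 0.09 for all fitted genes, a gap of 0.12. The gap depended on which genes were fitted and was 0.06 with the filter at the 50th percentile, where the median of all genes was 0.15, and 0.20 with no filter. The Cre value lay above both controls in 60 of the 78 members (76.9%), below both in 9 and between them or level with one in 9. Over all fitted genes it lay above both in 49.7% and below both in 33.6%. The controls themselves showed no such offset, with a median of -0.002 for control mouse 2 minus control mouse 1 over the members, 38 of them higher in control mouse 2 and 40 higher in control mouse 1.

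The shift was small for almost every member. The Cre value exceeded both controls by at least 0.25 in 24 members (30.8%, against 27.9% of all fitted genes), by at least 0.5 in 7 (8.97%, against 13.7%) and by at least 1 in 2 (2.56%, against 3.67%). The interquartile range of the members' differences ran from 0.06 to 0.32, and that of all fitted genes from -0.20 to 0.38, so the members were packed more closely. Among the 558 fitted genes at or above the members' lower quartile of mean level, the median difference was 0.06, and the 58 members in that range had a median of 0.20.

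**Figure D1:**
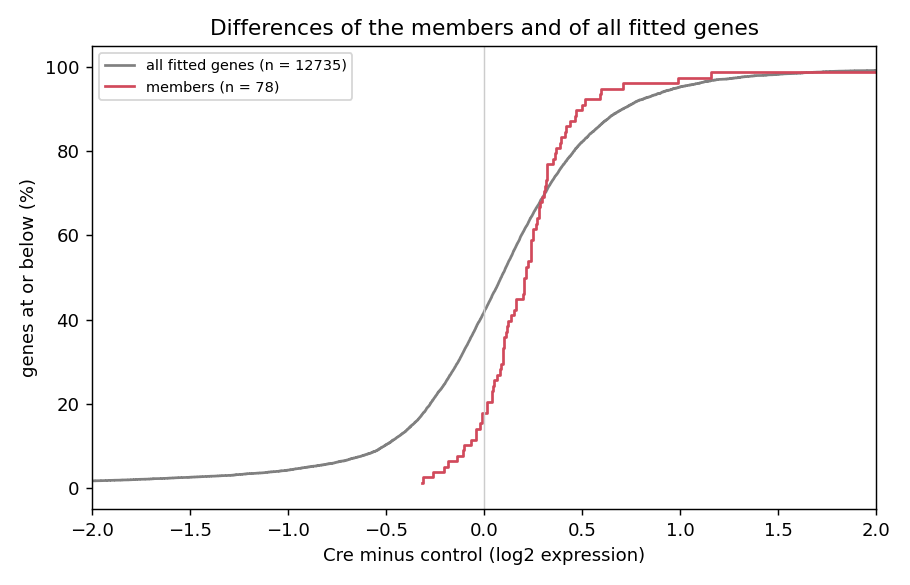
Cumulative share of genes (vertical axis, percent) at or below each Cre minus control difference (horizontal axis, log2 expression; the ends, Cox6b2 among them, lie outside it) for the 78 fitted members and the 12735 fitted genes. The members' curve lies to the right of zero for most of its height and is steeper, with medians of 0.21 and 0.09.

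Markers of other cells were read in the same livers, in bulk, where fewer cells of a type and less RNA per cell cannot be told apart. All 5 macrophage markers and all 4 endothelial markers were above both controls in the Cre liver, with log2 summed levels (both controls, then Cre) of 9.14, 9.76 and 10.23 for macrophages and 8.76, 8.82 and 9.04 for endothelium, none past the threshold. The summed level of stellate cell markers was 8.54, 8.63 and 8.82, that of T and B cell markers 6.38, 6.36 and 6.34, and that of the hepatocyte markers 16.59, 16.60 and 16.55. Of 4 biliary markers Krt19 (-0.16) and Krt7 (0.02) were below the filter value on average, and Epcam (0.28) did not pass. Sox9 rose (2.35), from 3.87 and 4.82 in the controls to 6.69 with Cre virus. The erythroid gene Alas2 fell (-3.27), and Hba-a1 was below the filter value in every liver. The part of these cells in the subunit values was not tested.

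By limma's test 8 members rose and 0 fell, that is 10.3% of the fitted members against 6.71% of all fitted genes that rose and 5.21% that fell. The share that rose is near the background, and no more is read from it. Among the 558 fitted genes at or above the members' lower quartile of mean level, 60 rose and 114 fell. Of the 58 members in that range, 4 rose and 0 fell. Without adjustment, 24 members (30.8%) had p under 0.05 by limma, each of them higher in the Cre liver, beside 3977 of all fitted genes (31.2%), of which 2599 were higher; the members' share does not exceed the background. The 8 that rose were Ndufb7, Ndufc1 and Ndufa3 of complex I, Cox6b2, Cox7a1, Cox7c and Cox7a2 of complex IV and Atp5k of complex V. The count fell to 2 with eBayes without an intensity trend (2.56% of members against 5.16% of all genes), with no filter (2.47% against 2.45%), or when shared and mixed probe sets were dropped (3.28% against 4.06%), and it was 12 after quantile normalization (15.4% against 9.36%). The members' share thus lay above or below the background depending on the setting. Except for Cox6b2, each of the 8 lost its call in some of the other settings: Atp5k and Ndufb7 passed in 7 of 9, Ndufc1 and Cox7a2 in 6 of 9, Cox7a1 in 6 of 8, Ndufa3 in 4 of 9 and Cox7c in 3 of 7.

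**Figure D2:**
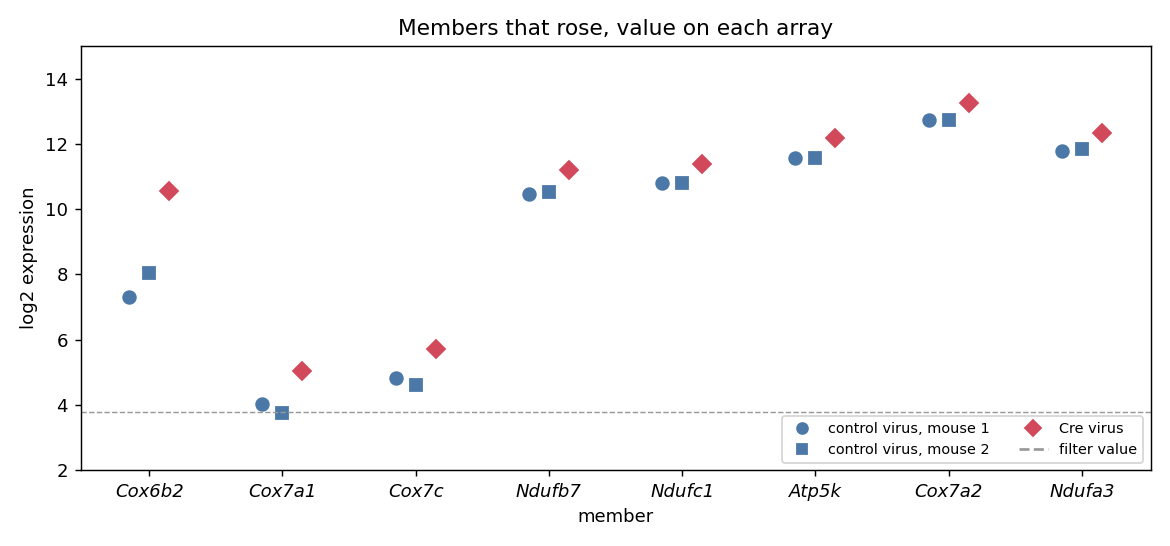
Log2 expression (vertical axis) of the 8 members that rose, on each of the 3 arrays; blue circles and squares are the 2 control mice, red diamonds the Cre mouse, and the dashed line is the filter value of 3.77. In each member the Cre value lies above both controls, by the widest margin in Cox6b2 (10.55 against 7.30 and 8.03).

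Complex I, the NADH dehydrogenase, had a median difference of 0.26 over 32 fitted members (0.16 without shared or mixed probe sets), with the Cre value above both controls in 28 members and below both in 2. Ndufb7, an accessory subunit of the membrane arm that carries disulfide-forming cysteines, was at 10.46 and 10.51 in the controls against 11.20 with Cre virus. It rose by 0.71 ± 0.10 SE (1.64-fold, limma adjusted p = 0.0286). Its other probe set gave 0.31, and without shared or mixed probe sets it did not pass (adjusted p = 0.165; 0.00746 to 0.165 over 9 other settings). Ndufc1, a small single-helix accessory subunit, was at 10.80 in both controls against 11.39 with Cre virus (0.60 ± 0.10 SE, adjusted p = 0.0373). Its other probe set gave 0.68. Ndufa3, also a small membrane subunit, was at 11.79 and 11.85 in the controls against 12.32 with Cre virus (0.50 ± 0.10 SE, adjusted p = 0.049), just inside the threshold, and lost its call in 5 of 9 other settings (adjusted p 0.0193 to 0.38). Its second bright probe set gave 0.51, while the mean that includes a dim one was 0.19. In all 3 the controls lay close together and apart from the Cre value.

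Just outside the threshold, Ndufa6, an accessory subunit of the LYR protein family, was at 10.82 and 10.81 in the controls against 11.28 with Cre virus (0.47 ± 0.10 SE, limma adjusted p = 0.0605). Ndufb11, a membrane arm subunit encoded on the X chromosome, was at 12.44 and 12.40 against 12.77 (0.35 ± 0.09 SE, adjusted p = 0.0832). The other members with a difference of 0.3 or more were Ndufb2, Ndufs4, Ndufb1, Ndufb6, Ndufb8, Ndufa9 and Ndufa7, between 0.31 and 0.42 and none past the threshold. Where a gene had more probe sets, the next brightest gave 0.08 for Ndufb6, 0.29 for Ndufb2, 0.50 for Ndufs4, 0.14 for Ndufb8 and 0.28 for Ndufa7.

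Complex I was also read by its modules. The N module, which binds NADH, had a median of 0.28 over 9 fitted members with all 9 above both controls, from 0.05 for Ndufv3 to 0.47 for Ndufa6. Ndufa12 was above them only narrowly, at 11.67 and 11.27 against 11.75, and its other probe sets gave 0.07, -0.12 and -0.06. The Q module, which reduces ubiquinone, had a median of 0.05 over 4 members, with differences of -0.11 for Ndufs3, -0.02 for Ndufs7, 0.12 for Ndufa5 and 0.20 for Ndufs8. The membrane arm and other accessory subunits had a median of 0.28 over 19 members. Split after the values were seen, the 6 measured subunits of the catalytic core, which carry the flavin and iron-sulfur clusters or line the quinone site, had a median of 0.15 (Ndufv1 0.23, Ndufv2 0.10 and Ndufs1 0.30, beside Ndufs3, Ndufs7 and Ndufs8), and the 26 accessory subunits 0.28. These differences between subunit groups were not tested. Ndufb4, too dim on its own probe set, was at 10.95 and 10.89 against 11.03 on one shared with Ndufb4b and Ndufb4c. In all, 6 probe sets that name a member together with another gene were left out.

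Complex II, succinate dehydrogenase, is shared with the citric acid cycle and was mixed in direction; its difference from the other complexes was not tested. Its median was -0.08 over 4 members, with 2 above and 2 below both controls, and none passed the test. It was -0.0033 with averaged probe sets and -0.26 over the 3 members left without shared or mixed ones. The catalytic pair was lower: Sdha, the flavoprotein, was at 11.64 and 11.60 in the controls against 11.41 with Cre virus (-0.21 ± 0.10 SE). Its second bright probe set gave -0.32. Sdhb, the iron-sulfur subunit, was at 11.95 and 11.80 against 11.62 (-0.26 ± 0.12 SE). Of the membrane anchors, Sdhc was at 9.50 and 9.52 in the controls against 9.94 with Cre virus (0.44 ± 0.11 SE, limma adjusted p = 0.0862), and Sdhd was at 10.63, 10.65 and 10.68. The dimmer probe set of Sdhc gave only 0.09 (7.89 and 7.81 against 7.94), and that of Sdhd gave 0.20. The anchors and the catalytic pair therefore lay on opposite sides of their controls, although the Sdhd value exceeded the nearer control by far less than its SE of 0.10.

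**Figure D3:**
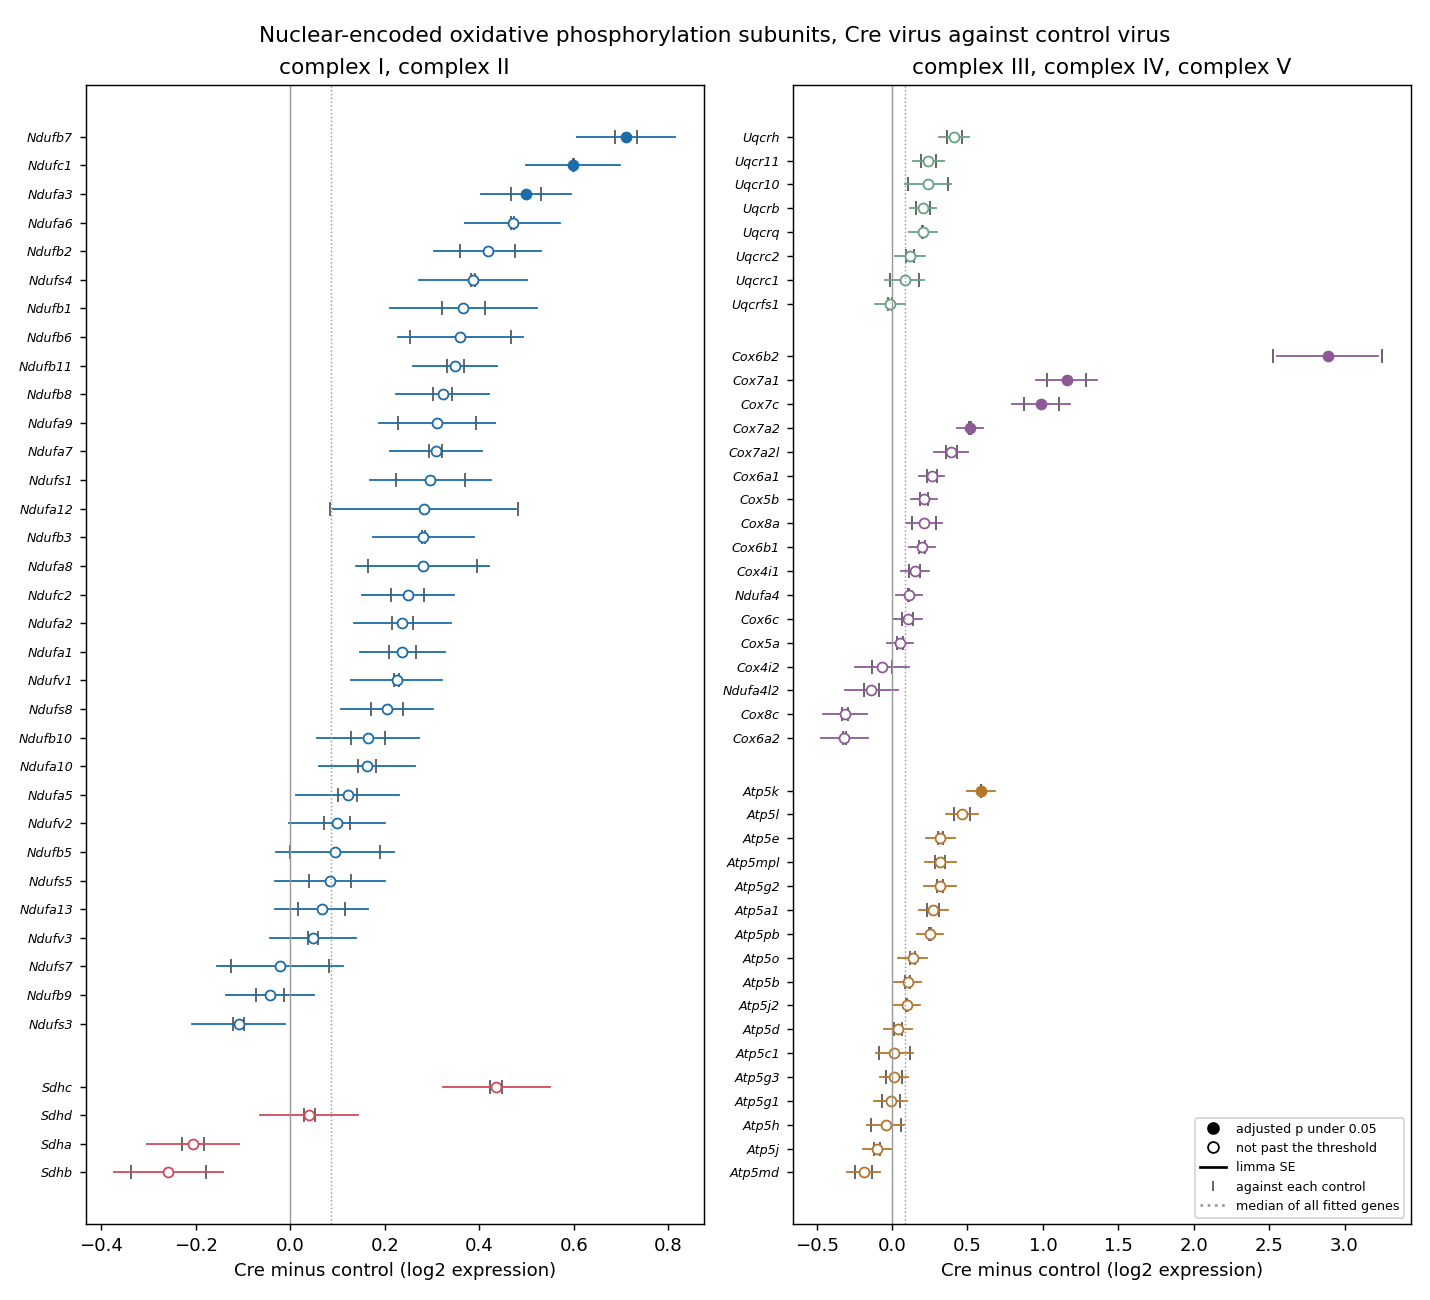
Difference of each fitted member (horizontal axis, Cre minus control mean, log2 expression; the panels have different scales), grouped by complex and sorted; filled points have an adjusted p under 0.05, lines show limma's SE, ticks the difference from each control alone, and the dotted line the median of all fitted genes. Most points lie right of zero, with Sdha, Sdhb and a few isoforms to the left and Cox6b2 far to the right.

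Complex III, the cytochrome bc1 complex, had a median of 0.20 over 8 members, 6 above both controls and none below both, and none passed the test. Uqcrh, the acidic hinge subunit that contacts cytochrome c1, was at 11.81 and 11.71 in the controls against 12.18 with Cre virus (0.41 ± 0.10 SE, limma adjusted p = 0.0794). Uqcr11 was at 11.75 and 11.85 against 12.04, and Uqcrb, which supports the quinone site, at 13.77 and 13.87 against 14.02. Uqcr10 was at 11.29 and 11.02 against 11.39. Its dimmer probe sets differed between the controls themselves, at 4.73 and 7.75 on one and 5.23 and 7.60 on the other, and its difference turned to -0.05 when probe sets were averaged and to -0.35 without shared or mixed ones. The 5 small subunits, including Uqcrq (0.20), had a median of 0.24. The core proteins Uqcrc1 (0.08) and Uqcrc2 (0.12) and the Rieske iron-sulfur protein Uqcrfs1 (-0.01) had a median of 0.08, and for Uqcrc1 and Uqcrfs1 the Cre value lay between or level with the controls. Cyc1, cytochrome c1, which the naming pattern does not cover, differed by -0.02.

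Complex IV, cytochrome c oxidase, held the members with the largest differences, and these were isoforms or a dim probe set. Of 17 fitted members 4 rose, 13 lay above both controls and 3 below both, with a median of 0.20. Cox6b2, an isoform best known from testis, was at 7.30 and 8.03 in the controls against 10.55 with Cre virus. It rose by 2.89 ± 0.33 SE, or 7.40-fold (limma adjusted p = 0.0173), and it passed in all 9 other settings of the test. The controls differed by 0.73, the widest gap of any member, yet the Cre value was 2.52 above the higher one. It has a single probe set, and no second reading was made. Its broadly expressed counterpart Cox6b1 was at 12.83 and 12.88 against 13.05 (0.20 ± 0.09 SE).

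Cox7a1, the heart and skeletal muscle isoform that is also found in brown fat, was at 4.01 and 3.76 in the controls against 5.04 with Cre virus (1.16 ± 0.20 SE, limma adjusted p = 0.0418). Its controls straddle the filter value, so the size of that rise is uncertain. Of 8 muscle markers, 6 were below the filter value on average, and the summed level of the 8 was 6.79 and 6.75 in the controls against 6.66 with Cre virus. Both brown fat markers, Ucp1 and Cidea, were below the filter value in every liver. Cox7a2, the broadly expressed form of the same subunit, used in liver, was at 12.73 and 12.72 in the controls against 13.24 with Cre virus, a rise of 0.52 ± 0.08 SE (adjusted p = 0.0359), and its second probe set gave 0.56. Cox7a2l, a factor that joins complexes III and IV into supercomplexes, differed by 0.39 ± 0.11 SE without passing, and its other probe sets gave 0.20 and 0.12. Thus each measured gene of the Cox7a family was above both controls.

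Cox7c, a ubiquitous small subunit, was read by dim probe sets only. Its value was 4.83 and 4.60 in the controls against 5.70 with Cre virus (0.99 ± 0.19 SE, limma adjusted p = 0.0497), and it lost its call in 4 of 7 other settings (adjusted p 0.0263 to 0.084). The other tissue-restricted isoforms were lower than or near their controls, and none passed. Cox6a2, the muscle form, was at 5.86, 5.85 and 5.54 (-0.32 ± 0.16 SE), Cox8c, a testis form, at 6.85, 6.89 and 6.56 (-0.31), and Cox8b, another muscle form, at 3.84, 3.90 and 3.55 near background. A second Cox8c probe set was at 5.73 and 4.82 in the controls against 5.44 with Cre virus (0.16), between the controls. Cox4i2, a lung-enriched and oxygen-responsive form, differed by -0.07 and Ndufa4l2 by -0.14, both dim. Against these, Cox6a1 was at 13.95 and 14.02 in the controls against 14.25 with Cre virus (0.26 ± 0.08 SE). The differences of the remaining broadly expressed members were 0.15 for Cox4i1, 0.21 for Cox8a and Cox5b, 0.11 for Ndufa4, 0.10 for Cox6c and 0.05 for Cox5a, none past the threshold.

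Complex V had a median of 0.10 over 17 members, beside 0.09 for all fitted genes, with 11 above and 2 below both controls. Without shared or mixed probe sets it was 0.22 over 13 members, beside 0.06 for all genes. Atp5k, the e subunit of the membrane part, at which ATP synthase dimers meet, was at 11.58 in both controls against 12.17 with Cre virus. It rose by 0.59 ± 0.09 SE (limma adjusted p = 0.0337), and its other probe sets gave 0.65 and 0.58. Atp5l, the g subunit that sits beside it, was at 11.32 and 11.21 in the controls against 11.73 with Cre virus (0.47 ± 0.11 SE, adjusted p = 0.0695), and passed after median centring or quantile normalization. Atp5e, the epsilon subunit of the central stalk, was at 11.33 and 11.37 against 11.67, and Atp5mpl, a small membrane protein of the complex, at 11.01 and 10.95 against 11.30 (both 0.32). Atp5md, which supports ATP synthase dimers as well, was at 11.27 and 11.15 against 11.02, below both controls.

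The catalytic F1 part had a median of 0.10 over 5 members, from Atp5c1 (0.02) and Atp5d (0.04) through the beta subunit Atp5b (0.10) and the alpha subunit Atp5a1 (0.27) to Atp5e. The other probe sets of Atp5a1 gave 0.07 and -0.04. Of the 3 genes for the identical c subunit of the rotor, Atp5g3 was at 13.29 and 13.18 in the controls against 13.25 with Cre virus, and Atp5g1 differed by -0.01, or 0.0032 after median centring. For both the Cre value lay between the controls, whereas Atp5g2 was at 10.10 and 10.13 against 10.43 (0.32 ± 0.11 SE, limma adjusted p = 0.141). Of the peripheral stalk, Atp5pb differed by 0.25, Atp5o by 0.14, Atp5h by -0.04 and Atp5j by -0.10. A second bright probe set of Atp5h gave 0.24, opposite in sign.

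Other parts of the mitochondrial energy system were set beside the subunits. The 1 mitochondrially encoded subunit analysed here was ND5, a proton-pumping subunit of complex I, at 13.53 and 13.57 in the controls against 12.91 with Cre virus. It fell by 0.64 on the log2 scale (limma adjusted p = 0.0217; 0.00352 to 0.0766 over 9 other settings, not past without an intensity trend), while none of the nuclear-encoded members fell.

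Of 42 fitted assembly factors 4 rose and 3 fell, with a median of 0.16. Cox19 (1.47 ± 0.12 SE, limma adjusted p = 0.00855), a copper-pathway protein of complex IV assembly, Coa3 (1.05 ± 0.11 SE, adjusted p = 0.0155), which stabilises newly made COX1, Ndufaf7 (0.89) and Sdhaf4 (0.60) rose. Sco2, which delivers copper to complex IV, was at 9.04 and 9.19 in the controls against 7.40 with Cre virus and fell (-1.72 ± 0.14 SE, adjusted p = 0.00827). Lrpprc, which protects mitochondrial messenger RNAs, was at 8.89, 8.99 and 7.97 and fell as well (-0.98 ± 0.13 SE, adjusted p = 0.0235), as did Coa6 (-0.74, adjusted p = 0.0406). Of these 7, Cox19, Sco2 and Lrpprc passed in every other setting in which they were fitted, Coa3 in 8 of 9, Ndufaf7 in 7 of 8, Coa6 in 6 of 8 and Sdhaf4 in 6 of 9. All of these 7 except Sdhaf4 thus differed by more in absolute size than Ndufb7 (0.71), the subunit with the largest difference outside complex IV.

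Of 17 fitted citric acid cycle and pyruvate dehydrogenase genes 1 rose and 0 fell, with a median of 0.24: Pdhb (0.61 ± 0.11 SE, limma adjusted p = 0.0399), which passed in 5 of 9 other settings (adjusted p 0.0141 to 0.0835). Dlat (1.09), Cs, citrate synthase (0.88), and Ogdh (0.59) did not pass. Of 17 genes for electron carriers and coenzyme Q, 1 rose and 0 fell (median 0.15). This was Coq8b, a coenzyme Q regulator, at 5.62 and 5.52 in the controls against 7.19 with Cre virus (1.62 ± 0.16 SE, adjusted p = 0.0123), while Coq10b (-0.67), Etfdh (0.45) and Etfb (0.33) did not pass. Of 76 mitochondrial ribosomal protein genes 0 passed limma's threshold in either direction (median 0.13; 15 had an unadjusted p under 0.05, 12 of them higher), with Mrpl33 (0.65), Mrps15 (0.63), Mrpl54 (0.57) and Mrpl12 (-0.55) farthest from zero. Of 5 fitted carriers and uncouplers, the ADP/ATP carrier Slc25a5 fell (12.64 and 12.65 against 12.18, -0.47 ± 0.09 SE, adjusted p = 0.0468) and passed in 6 of 9 other settings (adjusted p 0.012 to 0.125, differences from -0.93), and Slc25a4 (0.58), Atpif1 (0.57) and Ucp3 (0.21) did not pass.

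Of 15 regulators of mitochondrial gene expression 1 rose and 1 fell, with a median of 0.03. Esrrg, which encodes the nuclear receptor ERR gamma, was at 4.34 and 4.28 in the controls against 5.73 with Cre virus (1.42 ± 0.17 SE, limma adjusted p = 0.0184; 0.71 as the mean of its probe sets). Ppargc1b, the coactivator PGC-1 beta, was at 8.23 and 7.77 against 6.58 (-1.42 ± 0.24 SE, adjusted p = 0.0373), and passed in 6 of 9 other settings. Nrf1 (0.42), Yy1 (0.36), Ppargc1a (0.10), Tfam (0.03) and Gabpa (0.00) did not pass.

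**Figure D4:**
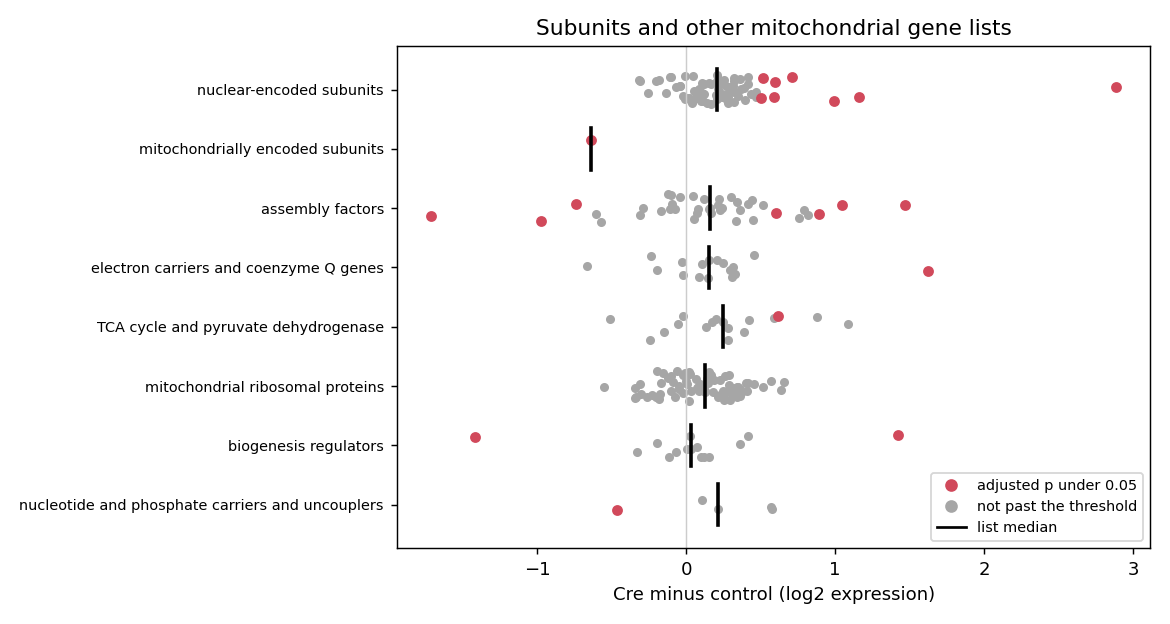
Difference of each fitted gene (horizontal axis, Cre minus control, log2 expression) for the nuclear-encoded subunits and 7 other mitochondrial lists (vertical axis, points spread for visibility); red points passed limma's threshold and black bars are list medians. The subunits cluster around 0.21 while the assembly factors and regulators spread to both sides.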

How the data were processed

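Liver RNA of 3 mice was labelled by 3-prime in vitro transcription, per the labels' protocols, and read on 1 array each. The authors deposited 1 log2 value for each probe set and liver; the submitters' processing notes name RMA and Partek 6.5. Base 2 was taken from their range (maximum 15.05). RMA equalises the arrays and compresses differences at the dim and bright ends, where dim isoforms and several subunits lie. Depth does not apply, and the number of arrays limits precision.

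Of 45101 probe sets, 34945 named 1 gene. The probe set with the highest mean stood for each gene, and genes whose mean reached the 30th percentile (3.77) entered a fit with limma 3.58.1 in R 4.3.3 (trend, 1 residual and 3.18 prior degrees of freedom, Benjamini-Hochberg over 12735 genes, two-sided). The fit was also run on simulated data in which all arrays had the same spread. That run could not check whether the Cre mouse varies as the controls do. P-values rest on the spread between 2 control mice, labelled biological replicates. For each gene that spread was moderated toward an intensity trend over all fitted genes, so its SE is only partly its own. Members and lists were chosen with earlier results of these data known. Members may all be named; those past the threshold, the 4 with the largest differences in each complex, its brightest member and paired isoforms have values, as do list genes past the threshold or among their list's 4 largest. Alternatives changed moderation, filter, scaling, probe sets and threshold. Figures used matplotlib 3.10.9.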

Additional observations from a re-analysis of the deposited data

How the results depend on the processing

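The count of members that rose was 8; it was 2 with eBayes without trend, with no filter or without shared or mixed probe sets, 14 at an adjusted p under 0.1 and 0 under 0.01. The count that fell was 0 in each setting run. The 363 other values for 34 named members include those with a control left out, where only the sign was compared. Among these values, 332 kept their sign and, where tested, their side of the threshold. Another 21 no longer passed, 5 newly passed and 5, of members that did not pass, changed sign. These were Atp5g1 (0.0032 after median centring, -0.0698 to 0.0517 with a control left out), Atp5g3 (-0.0401 to 0.0672 with a control left out) and Uqcr10 (-0.0459 with averaged probe sets, -0.353 without shared ones). The members' median of 0.21 was 0.22 after median centring, 0.19 after quantile normalization (0.1889) or with averaged probe sets (0.1891), 0.16 without shared or mixed probe sets, and 0.19 to 0.20 with either control left out (0.188 to 0.199). That of complex I (0.26) was 0.24, 0.22 and 0.16 after quantile normalization, averaging and leaving out shared probe sets, and 0.22 to 0.26 with a control left out. That of complex II (-0.08) was -0.071 after median centring, -0.093 after quantile normalization, -0.0033 with averaged probe sets and -0.26 without shared ones, and -0.0886 to -0.0758 with a control left out. That of complex III (0.20) was 0.22, 0.18, 0.17 and 0.22 in the same order and 0.17 to 0.19 with a control left out. That of complex IV (0.20) was 0.12 without shared probe sets and 0.14 to 0.22 with a control left out. That of complex V (0.10) was 0.068 after quantile normalization, 0.22 without shared probe sets and 0.09 to 0.12 with a control left out. Removing Cox6b2, chosen after its value was seen, left the members' median at 0.20. Members above both controls numbered 60, and 24, 7 and 2 when a margin of 0.25, 0.5 or 1 was asked. Set against 1 control at a time, 63 to 65 lay above it, the 60 included. The causes were not tested. With either control left out no test could be made, since no residual degree of freedom remains. No paired analysis was possible because the Cre group has 1 array.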
